A study of Mus musculus with 20 samples.

Results

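The genotype by stress interaction asks, for each gene, whether the amygdala of mice without the serotonin transporter (5-HTT, encoded by Slc6a4) answered a short swim differently from the amygdala of wild-type mice. It was computed as (KO stress minus KO con) minus (WT stress minus WT con) on the log2 signals of all 20 arrays and all 28767 probe sets, of which 21776 carry 1 gene symbol. A positive value means that the response lay higher in KO than in WT, and a negative value that it lay lower. The 20 male mice had a C57BL/6 background and heterozygous parents, lived alone from 2 months before a plus-maze test at 7 months of age, and were killed 2 weeks after it, with 5 animals each in the groups KO stress, KO con, WT stress and WT con. KO mice lacked both 5-HTT alleles from conception and in every cell. Stressed mice spent 1 min in water labelled as 22 °C, and control mice spent 1 min in the home cage. Left and right amygdala of a mouse were hybridized together as 1 sample.

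5-HTT returns released serotonin to the neuron, so that its loss prolongs the serotonin signal outside the cell from early life on. The amygdala receives dense serotonergic input and links sensory signals of threat to fear and to the hormonal stress response. It holds excitatory neurons of pallial origin in its basolateral part and GABAergic neurons, akin to those of the striatum, in its central part. In a bulk sample of such tissue, fewer cells of a type and less RNA per cell cannot be told apart.

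Slc6a4 (gene ID 15567, chr11:76998597-77032343 in GRCm38.p6) read 8.10 to 8.38 in arrays labelled KO and 5.82 to 7.82 in those labelled WT. The signal of the targeted gene was therefore higher in the arrays labelled KO, with no overlap, which goes against a plain loss of its transcript. Where its probes lie with respect to the deletion is not stated in the sources read here, so that the signal does not check the labels. Its interaction was 0.34 ± 0.33 (SE).

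No probe set passed the adjusted threshold for the interaction (limma, Benjamini-Hochberg adjustment over all probe sets, smallest adjusted p = 0.9999). At an unadjusted limma p under 0.05 there were 724 probe sets, or 2.52% of those tested, where 5% would be reached if no gene differed. Of these 202 were positive (0.702%) and 522 negative (1.81%). With a fold over 1.5 in addition, 170 probe sets remained (0.591%), 68 positive and 102 negative. All that follows therefore describes genes at unadjusted p. An ordinary linear model without moderation gave 717 probe sets at p under 0.05. A block of the replicate number in the WT arrays gave 347 positive and 881 negative ones. That block was chosen after deviations of WT arrays of the same number were seen to correlate, and the labels state no pairing.

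The balance of positive and negative probe sets changed with some settings, and the cause was not tested. With quantile normalization the probe sets at p under 0.05 were 428 positive and 468 negative, and those with a fold over 1.5 were 110 positive and 81 negative. With centring on array medians they were 203 positive and 562 negative, and with a fold over 1.5 they were 83 and 101. All named genes kept their direction under quantile normalization and under centring on array medians. Single arrays weighed on the counts as well: without WT con replicate 1 the cutoff was met by 245 positive and 161 negative probe sets, without KO con replicate 4 by 173 and 163, without WT stress replicate 4 by 170 and 148, and without KO con replicate 1 by 24 and 57. WT con replicate 1 and WT stress replicate 1 correlated least with the other arrays (medians 0.978 and 0.961), and without both the cutoff was met by 175 positive and 162 negative probe sets, 147 of them among the 170.

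Of the 170 probe sets at the cutoff, 164 had stress differences of opposite sign in the 2 genotypes, against 53.2% of all probe sets. This share is a description, since a large difference between responses is reached most easily by responses on both sides of 0, and only 2 of the 170 passed p under 0.05 in each genotype with opposite signs. For the 102 negative probe sets the median difference was 0.55 in WT and -0.22 in KO, and in 96 of them the WT difference was the larger in size. For the 68 positive probe sets the medians were -0.43 in WT and 0.43 in KO, and in 36 of them the WT difference was the larger in size. Across all probe sets the 2 stress differences, which share no array, correlated at r = -0.17, as a description over genes that are not independent.

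The order of the 4 group means, from which these probe sets were chosen, is given as a description. WT stress had the highest of the 4 group means in 90 of the 102 negative probe sets. KO stress had the highest in 60 of the 68 positive ones, and WT stress the lowest in 57.

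**Figure D1:**
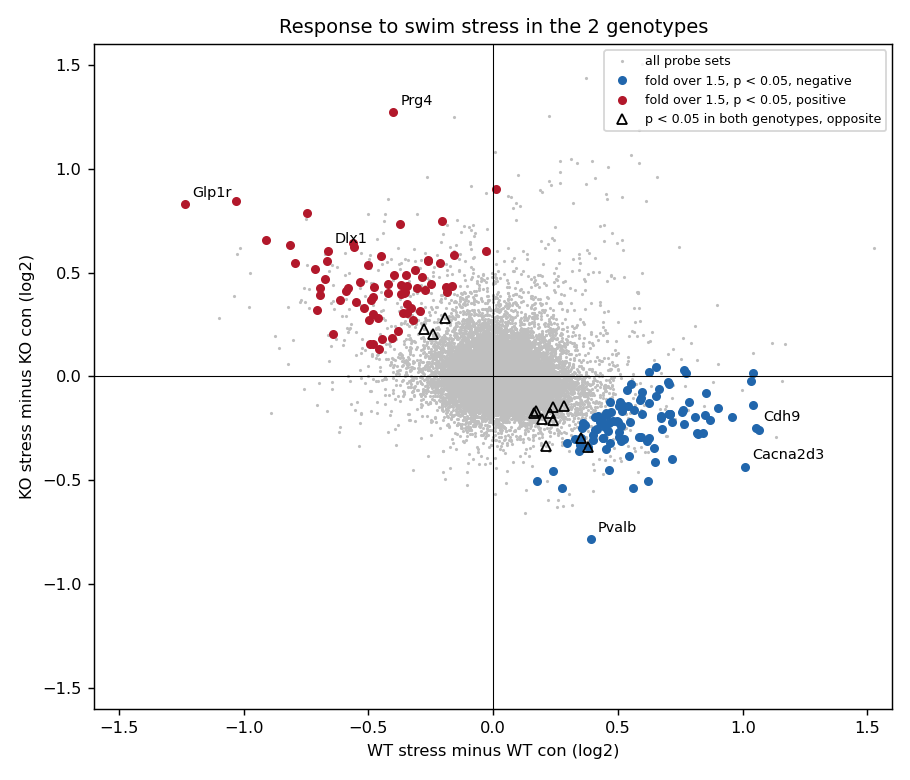
Each point is a probe set, placed by its stress difference in WT (x axis, log2) and in KO (y axis, log2), with 4 of 28767 probe sets outside the axes. The 102 negative (blue) and 68 positive (red) probe sets at a fold over 1.5 and unadjusted p under 0.05 lie mainly at the lower right and the upper left, and the 13 probe sets past p under 0.05 in both genotypes (triangles) lie closer to the centre.

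The strictest count of opposite responses required an unadjusted limma p under 0.05 for the stress difference in each genotype, with opposite signs. It held 13 probe sets (0.0452%), while 3 passed in both genotypes with the same sign. If no gene differed, independent tests at 5% in each genotype would give opposite signs in a larger share, so that the 13 are no excess. In 10 of the 13 the signal was higher after stress in WT and lower in KO, and in 3 the reverse held. A block of the replicate number in the WT arrays raised the count to 33, with 12 of the 13 among them. The differences were small, with interactions between 0.34 and 0.72 in size, and only Inpp5j and Gm1976 also had a fold over 1.5. Of the 13 probe sets, 11 carry 1 symbol.

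Cacna2d4, an auxiliary subunit of voltage-gated calcium channels (chr6:119236524-119352407), was the gene with the smallest interaction p. Its log2 signals were 6.18, 6.21, 6.08, 6.19 and 6.08 in WT con and 6.45, 6.39, 6.24, 6.22 and 6.58 in WT stress. They were 6.20, 6.23, 6.26, 6.26 and 6.20 in KO con and 6.09, 6.01, 5.97, 6.17 and 6.03 in KO stress. Every WT stress array lay above every WT con array, and every KO stress array below every KO con array. Among all probe sets this was the case in 0.257% for WT, in 0.289% for KO and in 0.00348%, or 1 probe set, for both, in either direction. The differences were 0.23 ± 0.06 in WT and -0.18 ± 0.06 in KO (SE), each at an exact two-sided permutation p of 0.00794, the smallest that 5 arrays against 5 allow. That p is also how often exchangeable arrays of a genotype would not overlap, and the shares for WT and for KO lie below it. The gene was picked by its values in these arrays, so that its separation and exact p are descriptions. The interaction was -0.40 ± 0.09, at an adjusted p of 0.9999 with limma.

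Inpp5j, an inositol polyphosphate phosphatase (chr11:3494272-3505501), had the largest interaction of the 13, at -0.72 ± 0.20. Its signals were 8.54, 8.76, 8.18, 8.0 and 8.38 in WT con and 8.47, 8.73, 8.81, 8.72 and 9.03 in WT stress. In KO con they were 8.80, 8.52, 8.92, 8.26 and 8.47, and in KO stress 8.36, 8.16, 8.31, 8.30 and 8.13. The groups overlapped in both genotypes, and the exact permutation p was 0.0635 in WT and 0.0317 in KO. Ttll11, a tubulin glutamylase, was separated in WT (8.04 to 8.31 in con, 8.35 to 8.56 in stress) and overlapped in KO (8.22 to 8.49, then 8.10 to 8.29). Kdm4d, a histone demethylase, overlapped in WT (5.63 to 5.92, then 5.85 to 6.09) and was separated in KO (6.02 to 6.36, then 5.89 to 5.99).

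The long noncoding RNA Gm1976 had differences of 0.35 in WT and -0.30 in KO, with overlap in both. The remaining named genes with the signal higher after stress in WT and lower in KO were the olfactory receptor genes Olfr913 and Olfr1182, the germ cell gene Tdrd6 and the predicted gene Gm4779. Their means over the arrays lay between 4.81 and 5.61, low on a scale on which 14.6% of probe sets have a mean under 5. Their interactions ran from -0.55 to -0.34.

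The opposite order was seen in Ifit3, an interferon-induced gene, and in Ccdc121. Ifit3 gave 6.52, 6.56, 6.91, 6.57 and 6.71 in WT con and 6.25, 6.50, 6.26, 6.46 and 6.59 in WT stress. In KO it gave 6.32, 6.41, 6.36, 6.45 and 6.29 without stress and 6.62, 6.57, 6.60, 6.50 and 6.56 after it. The WT groups overlapped and the KO groups did not (exact permutation p = 0.0476 and 0.00794). Ccdc121 had differences of -0.28 in WT, where the groups did not overlap, and 0.23 in KO, where they did.

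**Figure D2:**
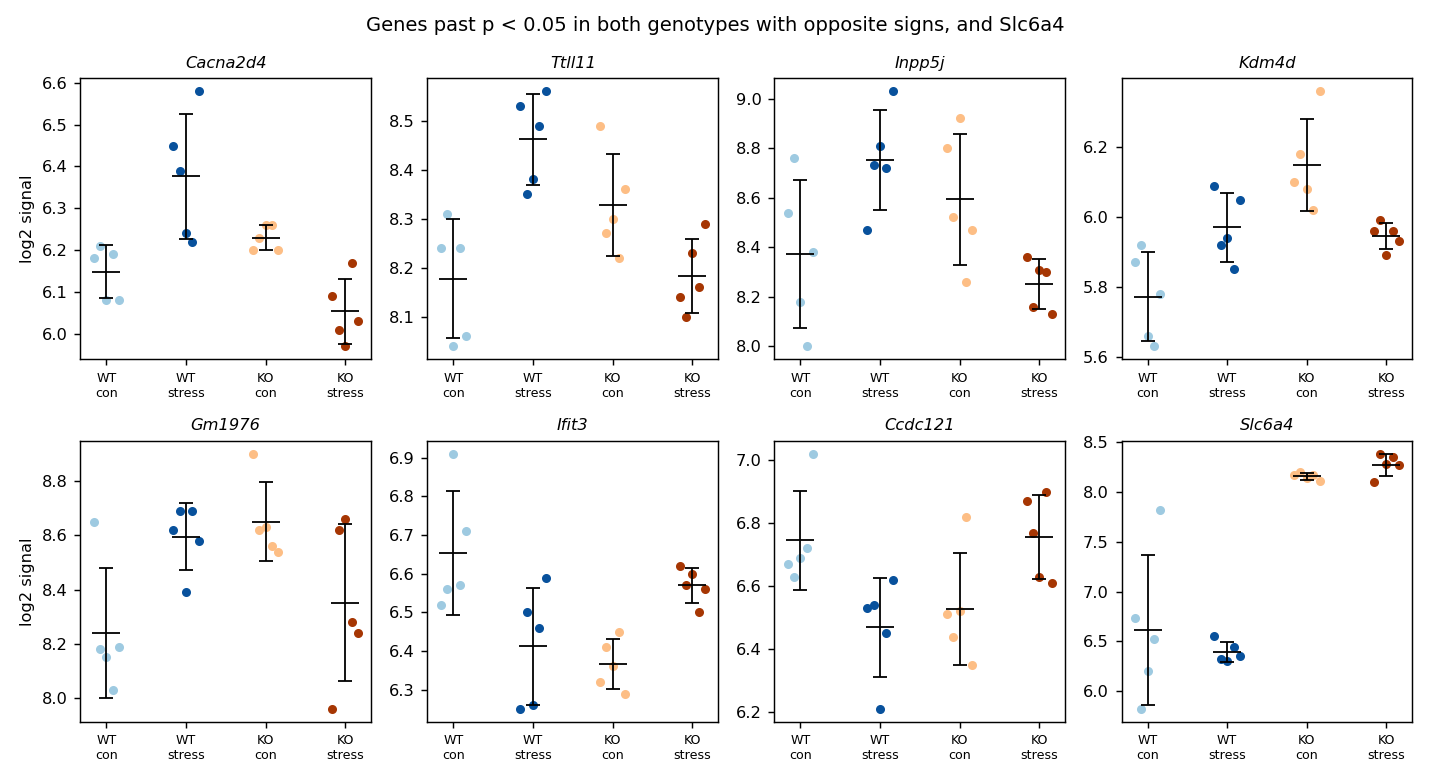
Log2 signals of single arrays (points), with the group mean and SD (black), for 7 genes past p under 0.05 in both genotypes with opposite signs and for Slc6a4. Cacna2d4 to Gm1976 are higher after stress in WT and lower in KO, Ifit3 and Ccdc121 the reverse, and Slc6a4 lies at 8.10 or more in every KO array.

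The edge of this group lay between Gm4779, with p of 0.0490 in WT and 0.00397 in KO (limma, unadjusted), and Zfp831, with 0.00290 and 0.0514. A wider count took an interaction p under 0.05 together with differences of at least 0.25 in opposite directions. It held 98 probe sets (0.341%), 43 with the signal higher in WT and lower in KO after stress and 55 with the reverse, and these stood for 36 and 29 different symbols. With quantile normalization the counts were 33 and 85, without both arrays that correlated least 57 and 142, and without KO con replicate 1 they were 19 and 11.

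Part of the counts came from genes measured by many probe sets. Dnah3, a heavy chain of the dynein arms of motile cilia, has 33 probe sets here, all positive, with a median interaction of 0.98 (range 0.28 to 1.88), and 17 of them are among the 68. Ccdc180, a coiled-coil gene, has 27, all positive, of which 5 are among the 68. Adamts3, a procollagen-processing protease, has 16, all negative at -1.10 to -0.68, of which 3 are among the 102. Of Gm10590, 4 probe sets with nearly the same values are among the 102, so that they are not separate measurements. Counted once per symbol, by the probe set with the highest mean, the cutoff was met by 125 genes, of which 31.2% were positive, against 40.0% of the 170 probe sets.

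The 12 negative genes with the smallest p at the fold cutoff are described first. They were picked by their values in these arrays, so that their exact permutation p-values are descriptions. Map2k6, a kinase that activates stress-activated MAP kinases (chr11:110399102-110525522), came first, with differences of 0.51 ± 0.11 in WT and -0.12 ± 0.11 in KO. Its WT signals were 7.24, 7.62, 7.18, 7.43 and 7.44 in con and 7.54, 7.83, 7.99, 8.02 and 8.06 in stress, overlapping in 1 array each way. Its KO signals were 7.93, 7.65, 7.67, 7.32 and 7.76 in con and 7.40, 7.55, 7.63, 7.57 and 7.57 in stress. Atf6, a sensor of stress in the endoplasmic reticulum, and Chrna7, a nicotinic acetylcholine receptor subunit, did not overlap in WT (differences of 0.54 and 0.41, exact permutation p = 0.00794 for each) and overlapped in KO (-0.06 and -0.20).

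Cdh9, a classical cadherin of synaptic adhesion (chr15:16728550-16857138), had the largest interaction of the 12 negative genes with the smallest p, at -1.30 ± 0.37. It gave 6.81, 6.56, 6.74, 6.40 and 6.61 in WT con and 6.99, 7.47, 7.43, 8.31 and 8.17 in WT stress, with no overlap. In KO con it gave 7.82, 7.11, 6.77, 6.52 and 6.99 and in KO stress 7.10, 6.68, 7.30, 6.73 and 6.17. The KO groups overlapped, and the differences were 1.05 in WT (exact permutation p = 0.00794) and -0.25 in KO (p = 0.429, same exact permutation test).

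The other members of the 12 were Zfp831 and Zfp697, zinc finger genes, Ptchd4, Slc44a5, a choline transporter-like gene, Dgki, a diacylglycerol kinase, Slc24a2, a potassium-dependent sodium/calcium exchanger, Inpp5j and Gm1976. Their interactions ran from -0.93 for Slc24a2 to -0.64 for Dgki. All had a positive difference in WT and a negative one in KO. Over the 102 negative probe sets, the WT groups did not overlap in 11, and the KO groups overlapped in every one. Over all probe sets the groups did not overlap in 0.257% for WT and 0.289% for KO. The 102 were chosen by these same values, mostly with the larger difference in WT, so that this count is a description. The largest negative value belonged to Cacna2d3, an auxiliary calcium channel subunit picked here for its size, at -1.44 ± 0.67. Its WT con arrays alone ran from 7.51 to 10.19, and the WT groups overlapped. Its unadjusted limma p rose above 0.05 in 16 of 33 other settings, 12 of them fits without 1 array, and its interaction ran from -1.80 to -1.13.

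Among single-symbol probe sets at the fold cutoff whose response was higher in KO, the smallest p belonged to Fbln5, an extracellular protein of elastic fibres (chr12:101746565-101819119). It gave 7.53, 7.97, 8.44, 7.65 and 7.52 in WT con and 7.32, 7.49, 6.88, 7.66 and 7.77 in WT stress. In KO it gave 7.59, 7.25, 7.69, 7.44 and 8.41 without and 7.91, 8.70, 8.01, 8.11 and 8.10 with stress. The groups overlapped in both genotypes, and the differences were -0.40 and 0.49, with an interaction of 0.89 ± 0.32.

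Sik1, a salt-inducible kinase, had differences of -0.42 and 0.40. Its WT arrays ran from 8.33 to 9.19 in con and from 7.77 to 8.58 in stress, and its KO arrays from 7.91 to 9.24 in con and from 8.68 to 9.36 in stress. Ngb, the neuronal globin, had an interaction of 0.91, Gpc3, a heparan sulfate proteoglycan, 1.03, and Hs3st3a1, a heparan sulfate sulfotransferase, 0.69. Sp9, a transcription factor of forebrain GABAergic neurons, had 0.63, and the noncoding Sox1ot 0.77. The extracellular matrix gene Omd had 0.60. In each of these, Fbln5 and Sik1 included, the WT difference was negative, the KO difference positive and the groups overlapped in both genotypes. Of all 68 positive probe sets, the WT groups overlapped in every one and the KO groups in all but 1, beside no overlap in 0.257% (WT) and 0.289% (KO) of all probe sets.

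The largest positive interaction at the cutoff, picked here for its size, was that of Glp1r, the receptor of the peptide GLP-1, at 2.07 ± 0.94. Its signals were 7.64, 8.57, 9.51, 9.59 and 9.30 in WT con and 6.96, 6.76, 7.07, 9.02 and 8.62 in WT stress. In KO con they were 6.16, 8.26, 8.75, 9.99 and 7.31 and in KO stress 7.54, 9.33, 8.15, 9.69 and 9.93. The KO con arrays alone spanned more than the interaction, and the exact permutation p was 0.0714 in WT and 0.325 in KO. The unadjusted limma p of the interaction rose above 0.05 in 14 of 33 other settings, 11 of them fits without 1 array, and the interaction ran from 1.58 without KO con replicate 1 to 2.54 without KO con replicate 4.

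**Figure D3:**
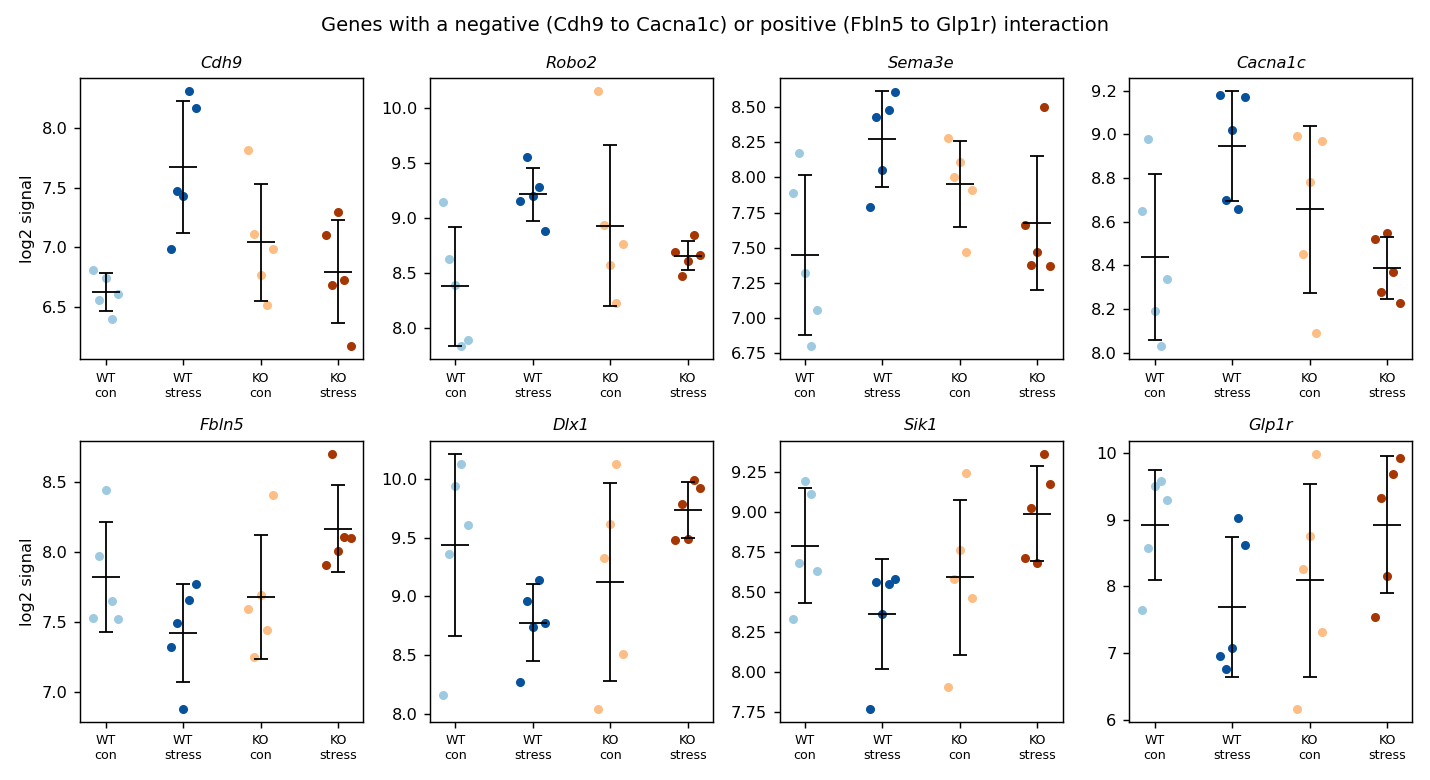
Log2 signals of single arrays (points), with group mean and SD (black), for 4 genes with a negative interaction (top) and 4 with a positive one (bottom). In the top row WT stress has the highest mean of the 4 groups, in the bottom row WT stress has the lowest, and apart from the WT arrays of Cdh9 the con and stress arrays overlap.

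Of the 5 genes also measured by real-time PCR in the study, 4 are described, and Adra2a is not analysed here because the probe table used names no probe set for it. Besides Cdh9, Robo2, a receptor for Slit proteins in axon guidance, had an interaction of -1.11 ± 0.40. It gave 9.14, 8.62, 8.39, 7.83 and 7.89 in WT con, 9.15, 9.55, 9.20, 9.28 and 8.88 in WT stress, 10.15, 8.93, 8.57, 8.22 and 8.76 in KO con and 8.69, 8.47, 8.61, 8.84 and 8.66 in KO stress. The highest value of all was KO con replicate 1, and the groups overlapped in both genotypes. In the paper's real-time PCR, Robo2 and Cdh9 were higher after stress in WT without reaching significance, and neither was called different in KO. Adra2a was significantly lower after stress in WT there and not called different in KO. Between stressed KO and stressed WT mice, that real-time PCR gave significantly lower Cdh9 and significantly higher Adra2a in KO. Robo2 was not called different in that comparison.

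Ace, the angiotensin-converting enzyme, was higher after stress in KO, where no arrays overlapped (7.02 to 7.36, then 7.37 to 9.02, exact permutation p = 0.00794). In WT its stress arrays ran from 6.81 to 9.72. The interaction was 0.40 ± 0.56, with 0.89 without WT stress replicate 4, which held the value of 9.72, and 0.167 without WT stress replicate 5. Anxa1, an anti-inflammatory annexin, had differences of -0.03 in WT and 0.88 in KO and an interaction of 0.91 ± 0.49, which was 1.18 without WT con replicate 1, 0.62 when WT con replicate 3 was left out, and 0.26 with the choroid plexus and meninges scores described further on. By real-time PCR the paper found Anxa1 significantly lower after stress in WT, unlike on the arrays, and higher in KO. Ace was significantly higher in KO by that method and not called different in WT. Between stressed mice of the 2 genotypes, it gave significantly higher Anxa1 in KO than in WT and did not call Ace different.

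Gene lists gave a second view. A list is described by the number of members with a positive interaction and by their median, beside 40.3% positive and a median of -0.03 over all probe sets. Members at p under 0.05 stand beside the shares given above for all probe sets, 0.702% positive and 1.81% negative. Several lists hold genes that the study listed from these same arrays, so that their direction is not independent evidence. An array's score for a list averages the list's genes, each centred over the 20 arrays beforehand.

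Lists of neurons of the pallium and striatum lay on the negative side. Of 32 pallial excitatory neuron genes 6 were positive, with a median of 0.33 in WT, -0.06 in KO and -0.38 for the interaction. Cdh9, Lmo3, a transcriptional co-regulator at -1.0, and Chrm1, a muscarinic receptor at -1.05, passed p under 0.05 and are listed by the study. Without its 4 listed members the median was -0.29, and without KO con replicate 1 it was -0.19. The score ran from -0.30 to -0.02 in WT con, -0.10 to 0.52 in WT stress, -0.21 to 0.55 in KO con and -0.27 to 0.29 in KO stress, so that the WT groups overlapped in part and the KO stress range lay mostly within that of KO con. Of 27 striatal and central amygdala genes 3 were positive, with a median of -0.34, and 1 passed, Ano3, an anoctamin listed by the study, at -1.32. That median ran from -0.64 without WT con replicate 1 to -0.17 without WT stress replicate 3, and it was -0.31 without Ano3. The score of the list ran from -0.62 to 0.79 in WT con and from -0.82 to 0.58 in WT stress. In KO it ran from -0.50 to 0.65 in con and from -0.47 to 0.31 in stress, so that the groups overlapped widely in both genotypes. The 3 positive members were Prkcd, at 1.38 ± 0.98, Isl1, at 0.42, and Meis2, at 0.0022, and none of them passed.

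Calcium signalling was the list with the most members at p under 0.05. Of 57 genes 11 were negative and 1 positive at that threshold, 20 were positive at any p, and 45 had stress differences of opposite sign. Slc24a2, which exports calcium, gave 9.80, 10.22, 9.34, 9.26 and 9.60 in WT con and 9.86, 10.18, 10.24, 10.51 and 10.53 in WT stress. In KO it gave 10.51, 9.77, 10.04, 9.50 and 9.83, then 9.63, 9.44, 9.84, 9.65 and 9.52. Cacna1c, a pore-forming subunit of L-type calcium channels, followed at -0.77 ± 0.26 and Jph1, a protein of junctions with the endoplasmic reticulum, at -1.05 ± 0.39. Of the 12 members, 5 are listed by the study. The list's median interaction was -0.14.

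Of 21 monoamine and acetylcholine receptor genes 5 were positive, with a median of -0.20, and Chrna7 and Chrm1 passed. Of 22 glutamate receptor genes 6 were positive, with a median of -0.09, and Grik4, a kainate receptor subunit at -0.42, and Grin2a, an NMDA receptor subunit at -1.04, passed. Of 14 GABA receptor genes 7 were positive, with a median of -0.0016, and none passed at unadjusted or adjusted p.

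The axon guidance list divided. Of 56 genes 34 were positive, with a median of 0.08 that was 0.0022 without WT stress replicate 1, yet 5 of the 6 members at p under 0.05 were negative. They included the ligands Sema3e, at -1.10 ± 0.37, and Slit3, at -0.75 ± 0.29, and the receptor Robo2. Sema3e ran from 6.80 to 8.17 in WT con and from 7.79 to 8.61 in WT stress, and in KO from 7.47 to 8.28 and from 7.37 to 8.50. Of the 3, all are listed by the study.

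GABAergic interneuron genes moved in both directions. Dlx1 and Dlx2, homeobox factors of GABAergic neuron development, had positive interactions of 1.27 ± 0.51 and 0.78 ± 0.32. Npas1, a transcription factor of interneurons, was negative at -0.61 ± 0.24 and so was Pvalb, a calcium-binding protein, at -1.17. Of 23 genes 11 were positive and the median was -0.01. Dlx1 gave 8.16, 9.36, 9.94, 10.13 and 9.61 in WT con, 8.27, 8.96, 8.74, 9.14 and 8.77 in WT stress, 8.04, 9.33, 9.62, 10.13 and 8.51 in KO con and 9.48, 9.79, 9.49, 9.99 and 9.92 in KO stress. The control arrays of both genotypes spread widely and the stressed arrays of the genotypes did not overlap.

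Lists of tissue at the border of the brain lay on the positive side. Of 42 genes of meninges and fibroblasts 40 were positive, with a median of -0.03 in WT and 0.59 in KO, and 5 passed p under 0.05, among them Fbln5, the lubricating proteoglycan Prg4 at 1.67 ± 0.73 and Mxra8 at 0.63. Of 43 genes of motile cilia and ependyma 41 were positive, with medians of -0.16 and 0.38. There 4 passed upward, Ccdc40, an axonemal assembly gene, and Spag17, of the central apparatus of cilia, among them, and 1 downward, Rfx3, a transcription factor of ciliary genes. Of 37 choroid plexus genes 35 were positive, with medians of 0.37 and 0.86, and 0 passed at unadjusted or adjusted p.

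Single arrays weighed on these lists. The transthyretin gene Ttr, the chief product of the choroid plexus, ran from 6.74 to 12.02 in WT con, 7.23 to 13.18 in WT stress, 6.54 to 10.59 in KO con and 9.23 to 13.04 in KO stress, with an interaction of 3.14 ± 1.73. The choroid plexus score ran from -0.65 to 2.01 within WT stress, and the median interaction of the list, 0.42, rose to 0.95 when WT stress replicate 4 was left out and was 0.20 when KO stress replicate 2 was. The meninges score was 0.98 in WT con replicate 3 and -0.36 to -0.29 in the other WT con arrays, and without that array the list's median interaction was 0.38 in place of 0.71. Without the genes that the study lists, the medians were 0.54 for meninges, 0.40 for cilia and 0.23 for choroid plexus.

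The scores of these lists differed between the groups together with the genes above, and what they contribute was examined only by taking them as covariates. With the pallial score in the fit, members of that list aside, 155 probe sets met the cutoff, of which 53 were among the 170, and the interaction of Robo2 was -0.75, of Ngb 0.39 of Gpc3 0.63 and of Zfp697 -0.40. With the scores of choroid plexus and meninges, 257 met it, of which 101 were among the 170, the interaction of Omd was 0.29, and 25 probe sets passed in both genotypes with opposite signs, of which 5 were among the 13.

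**Figure D4:**
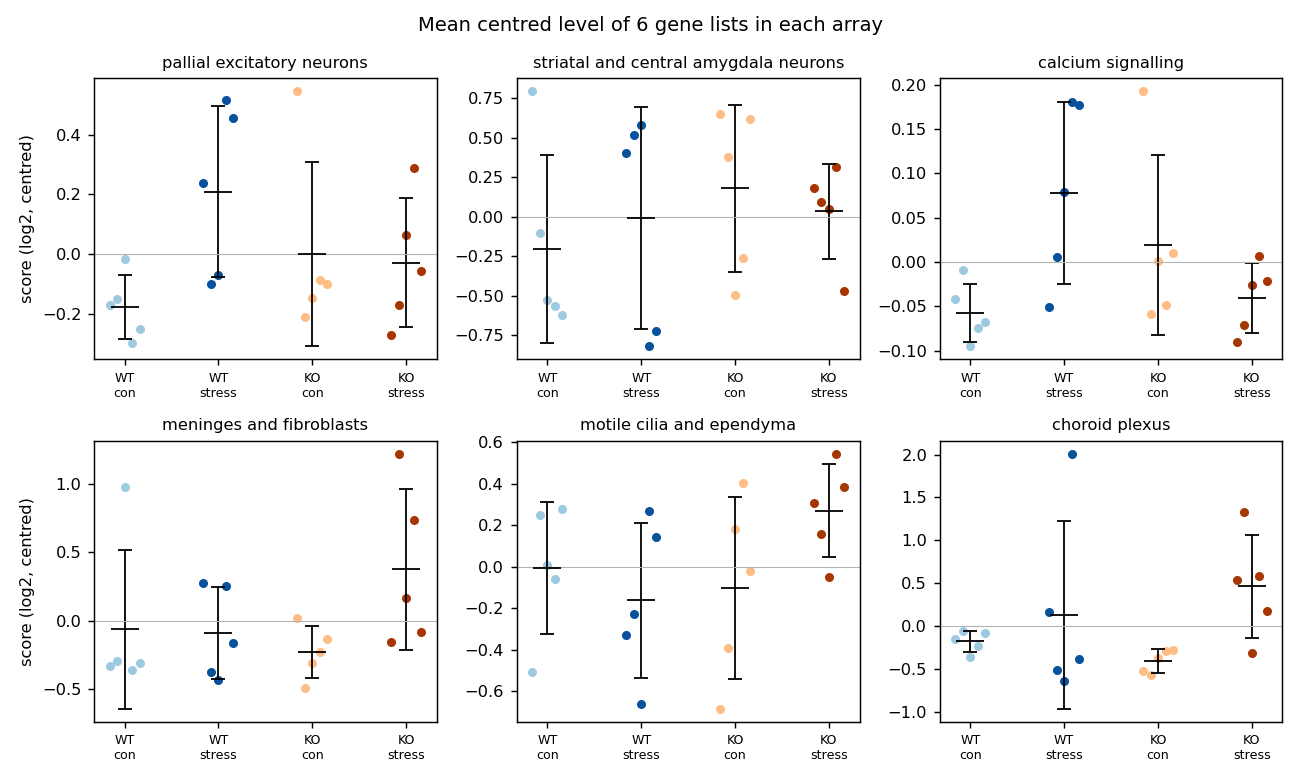
Score of 6 gene lists in each array (points, log2 relative to the mean of all arrays), with group mean and SD (black). Pallial and calcium signalling scores are highest on average in WT stress, meninges, cilia and choroid plexus scores in KO stress, and single arrays reach far beyond their group.

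Lists tied directly to the swim had small median interactions. By the paper's protocol the tissue was lysed within minutes of the swim, and no later time was measured. The medians therefore say nothing about a later response. Of 44 immediate early genes, which neurons switch on within minutes of activity, 23 were positive, with a median of 0.01. Plk2, a polo-like kinase, at -1.0 ± 0.35 and Nr4a3, a nuclear receptor, at -1.02 ± 0.40 stood against Sik1 at 0.82 ± 0.32. Plk2 gave 9.61, 8.97, 8.96, 8.42 and 8.64 in WT con and 9.66, 9.76, 9.71, 10.15 and 9.36 in WT stress, and in KO 10.16, 9.68, 8.75, 8.91 and 9.92, then 9.32, 9.22, 9.25, 9.43 and 9.25. The WT groups overlapped in 1 array each way and the KO stress arrays lay within the KO con range. Of 24 glucocorticoid-responsive genes 13 were positive (median 0.01), and Sgk1, a kinase induced by glucocorticoids, passed at -0.52.

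Of 22 genes of the serotonin system 13 were positive, with a median of 0.05, and 1 passed, Tph1, an enzyme of serotonin synthesis, at -0.18. The mean of Tph1 over the arrays was 4.71, near the low end of the scale, so that this value rests on little signal. Of 49 stress and anxiety peptide genes 20 were positive, with a median of -0.04, and 2 passed, the PACAP receptor gene Adcyap1r1 at 0.36 and the VIP receptor gene Vipr1 at -0.69.

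The remaining lists were described in the same way. Hypothalamic and medial amygdala genes were positive in 29 of 36 (median 0.31) and thalamic genes in 10 of 16 (0.21), with 1 passing, Zfhx3. The first median was 0.07 without KO stress replicate 1, and the second was -0.09 without WT con replicate 2. Endothelial genes were positive in 18 of 19 (0.17), with a median of 0.01 without WT con replicate 3, and astrocyte genes in 18 of 20 (0.14), a median that was -0.04 without WT stress replicate 1. Microglial genes were positive in 3 of 18 (-0.11), with 1 passing, Gpr34, at -0.42. Oligodendrocyte genes (11 of 19), MHC class II genes (5 of 8), red blood cell genes (2 of 3), ribosomal protein genes (34 of 61) and respiratory chain genes (36 of 80) had medians between -0.02 and 0.07. The only member of these 5 lists at p under 0.05 was Cd74, the invariant chain of MHC class II, at 0.89.

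**Figure D5:**
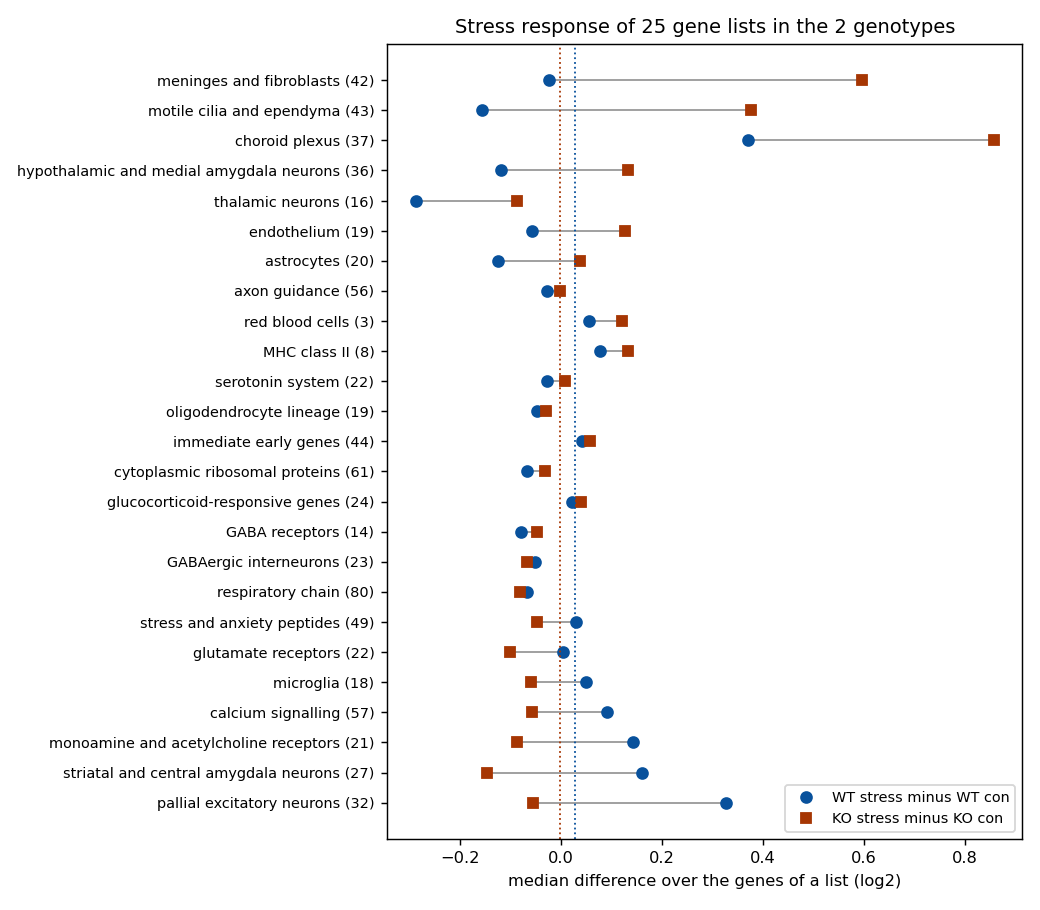
Median stress difference over the genes of each list in WT (circles) and KO (squares), in log2, with the number of genes in brackets and the medians of all probe sets as dotted lines. From bottom to top the squares move from left to right of the circles, from pallial excitatory neurons (0.33 in WT, -0.06 in KO) to meninges and fibroblasts (-0.03 in WT, 0.59 in KO).

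Promoters were searched for 3 motifs of fast transcription on both strands, in windows of 250 bases before to 50 after the start in RefSeq (GRCm38.p6). At the cutoff, promoters were available for 63 of 87 negative and 31 of 41 positive symbols. The cyclic AMP response element TGACGTCA, bound by CREB, was present in 588 of 32851 promoters (1.79%), in 2 of 90 of the negative set at the cutoff (2.22%) and in 1 of 35 of the positive set (2.86%). The AP-1 element TGACTCA was in 5.20% of all, 3.33% of the negative and 2.86% of the positive promoters. The Nr4a element AAAGGTCA was in 1.51% of all and in 0 of the 125 promoters of both sets. For the 98 probe sets with opposite differences, promoters were likewise available for only part of the symbols. These were 26 of 36 higher in WT and lower in KO (41 promoters) and 21 of 29 with the reverse (22 promoters). Among them 0 held the cyclic AMP response element, 1 (Mctp1) the AP-1 element and 0 the Nr4a element. Sets this small cannot be told apart from the shares over all promoters, and the other symbols were not searched.

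The 3 promoters at the cutoff that hold the cyclic AMP response element are shown since they lie in genes of opposite interaction, with the element in capitals and the strand of each gene: Plk2 (chr13:110394794-110395093, plus strand, -1.0), Fstl4, a follistatin-like gene (chr11:52764456-52764755, plus strand, -0.65), and Hs3st3a1 (chr11:64435082-64435381, plus strand, 0.69). In each the element begins 62 to 83 bases before the start.
Plk2: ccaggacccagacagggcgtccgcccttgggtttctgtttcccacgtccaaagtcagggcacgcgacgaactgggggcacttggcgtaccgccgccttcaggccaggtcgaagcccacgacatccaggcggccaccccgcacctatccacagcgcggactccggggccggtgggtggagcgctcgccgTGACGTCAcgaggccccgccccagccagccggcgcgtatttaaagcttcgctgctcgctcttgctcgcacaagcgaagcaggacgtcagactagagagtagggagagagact
Fstl4: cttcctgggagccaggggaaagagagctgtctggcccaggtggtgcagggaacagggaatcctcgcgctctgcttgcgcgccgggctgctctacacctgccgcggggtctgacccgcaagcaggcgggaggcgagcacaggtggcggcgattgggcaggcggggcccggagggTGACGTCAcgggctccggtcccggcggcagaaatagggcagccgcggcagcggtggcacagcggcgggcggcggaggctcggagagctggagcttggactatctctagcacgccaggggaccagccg
Hs3st3a1: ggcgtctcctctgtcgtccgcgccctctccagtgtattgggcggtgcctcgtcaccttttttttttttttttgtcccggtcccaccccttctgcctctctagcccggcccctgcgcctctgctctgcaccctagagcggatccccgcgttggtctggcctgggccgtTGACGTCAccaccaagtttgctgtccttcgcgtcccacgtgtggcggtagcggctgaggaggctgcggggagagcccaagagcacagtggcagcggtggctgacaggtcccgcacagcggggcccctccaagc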

How the data were processed

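RNA of both amygdalae of 1 mouse was hybridized to each Mouse Gene 1.0 ST array. The authors ran ExonRMA (ArrayAssist) for summarization and normalization, applied a variance stabilization and deposited log2 values of 28767 probe sets by 20 arrays, which were used without further scaling. Symbols come from the platform's probe table (1618 probe sets have several and 5373 none), and 21686 probe sets matched RefSeq genes of GRCm38.p6. Array medians lay between 6.59 and 6.82.

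Group means were fitted with lmFit and eBayes of limma 3.58.1 (R 4.3.3; 16 residual and 2.10 prior degrees of freedom), with Benjamini-Hochberg adjustment over all probe sets, and it was tested on simulated data. Folds are differences of mean log2 values. Within each genotype, named genes were also compared by an exact permutation test (two-sided, 5 arrays against 5). For genes picked by their values in these arrays, its p-values are descriptions. P-values measure the spread between mice. The number of arrays limits the precision, and the median SE of the interaction was 0.15.

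Named genes were Slc6a4, in each direction the 12 single-symbol probe sets of smallest p at the cutoff, those past p in both genotypes with opposite signs, the real-time PCR genes other than Adra2a and up to 3 members of each list by smallest p. Cacna2d3 and Glp1r were added after their values were seen. Adra2a was taken by the probe set that the paper names for it and is not among these named genes. Members and lists were chosen with earlier results of these data known. Cdh9, Robo2 and others were also listed by the study from these arrays.

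Labels number the arrays of each group 1 to 5. Deviations from the group means correlated at 0.162 to 0.420 between WT con and WT stress arrays of the same number (5 pairs) and at under 0.1 in some pairs of every other combination. Neither the labels nor the paper states what a shared number means, and the main fit used no block. A block in the WT arrays only and a block in all 4 groups were alternatives. The further alternatives were other scalings, filters, moderation and weights, score covariates and arrays left out. Figures were drawn with matplotlib 3.10.9.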

Additional observations from a re-analysis of the deposited data

Results flagged for a closer look

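Among 184 groups of 5 arrays examined (39 probe sets of named genes and 7 list scores, 4 groups each), 14 held an array far from the other 4 by Dixon's test, which flags about 1 group in 20 by chance.

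Ace stood at 9.72 in WT stress replicate 4, where the others lay between 6.81 and 7.62. KO con replicate 1 was far from its group in 4 cases: Gm1976 at 8.90 (others 8.54 to 8.63), Ngb at 7.32 (8.16 to 8.41), the pallial neuron score at 0.55 (-0.21 to -0.09) and the calcium signalling score at 0.19 (-0.06 to 0.01). WT stress replicate 1 stood apart for Sik1 at 7.77 (8.36 to 8.58) and Gm4779 at 5.37 (5.11 to 5.17), and WT con replicate 1 for Gm1976 at 8.65 (8.03 to 8.19). WT con replicate 3 was high for the meninges score at 0.98 (-0.36 to -0.29) and Omd at 5.45 (4.68 to 4.77). WT con replicate 5 was low for Olfr913 at 4.87 (5.02 to 5.05) and high for Ccdc121 at 7.02 (6.63 to 6.72). Hs3st3a1 was 6.26 in WT stress replicate 5 (5.95 to 5.97), and Fbln5 was 8.70 in KO stress replicate 2 (7.91 to 8.11).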

How the results depend on the processing

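No setting gave a probe set past the adjusted threshold. The count at a fold over 1.5 and p under 0.05 (170) was 274 with array weights, 259 with a replicate block in all 4 groups, 257 with choroid plexus and meninges scores as covariates, 337 without both WT arrays that correlated least, 724 with no fold threshold and 40 with a fold over 2. It ran from 81 to 406 with each array left out. The count past p in both genotypes with opposite signs (13) was 28, 36, 25 and 27 under the first 4 of these settings, 33 with a replicate block in the WT arrays only (added after the data were seen), 98 under the wider rule and 9 to 39 with each array left out. With the block in all groups 165 of the 170 and 10 of the 13 were among those that passed. The other settings for these 2 counts stayed within 1.5 times. The median of the serotonin system list ran from -0.0385 to 0.0546 with each array left out. No other list median moved by more than the SD of its score between arrays. The causes of these shifts were not tested.

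For 39 probe sets of named genes, 0 of the interactions reversed under any setting. Unadjusted p rose above 0.05 with the pallial score for Sox1ot, Gpc3, Sik1, Ngb, Sp9 and Robo2, with the choroid plexus and meninges scores for Hs3st3a1, Sik1, Sp9 and 1 of the Ccdc180 probe sets, and in 16 of 33 settings for Cacna2d3 and 14 of 33 for Glp1r (fits with either kind of score among them). It fell below 0.05 for Ace in 1 setting and for Anxa1 in 4.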
